A study of Mus musculus with 6 samples.

Results

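The genes that carry the IL-4 signal from the cell surface to the nucleus were examined in IL-4-treated macrophages with and without ATP citrate lyase (Acly). They are the receptor chains *Il4ra*, *Il13ra1* and *Il2rg*, the Janus kinases *Jak1*, *Jak2*, *Jak3* and *Tyk2*, the transcription factor *Stat6*, the adaptor *Irs2* and the phosphatase gene *Ptpn6*. These 10 genes were chosen by name for their role in the pathway, among 24445 genes in the count table, and all 10 were among the 12023 genes that passed the filter on low counts and were tested. Bone marrow-derived macrophages (BMDMs) of female C57Bl/6J mice were grown for 7 days with L929-conditioned medium and then received 100 U/mL recombinant murine IL-4 for 24 h. AclyM-KO cells (labelled KO, 3 libraries) carried *Acly* alleles floxed around exon 9 and Cre driven from *Lyz2*, which is active in myeloid cells, and Ctrl cells (labelled WT, 3 libraries) came from Acly fl/fl littermates and so carried the same floxed alleles. All libraries were IL-4-treated, and untreated cells were not analysed here. The study's own descriptions call the replicates biological in one place and technical, from pooled mice, in another, so every p-value below measures the spread between libraries, which may be technical.

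IL-4 binds IL-4Rα, which then pairs either with the common γ chain (the type I receptor, which brings JAK1 and JAK3 together) or with IL-13Rα1 (the type II receptor, which also binds IL-13 and uses JAK1, TYK2 and JAK2). The kinases phosphorylate IL-4Rα, where STAT6 docks, is phosphorylated, dimerizes and enters the nucleus, while IRS2 docks at another site and leads to PI3K. In macrophages this pathway switches on the genes of alternative activation, among them *Arg1*. Phosphatases such as SHP-1, the product of *Ptpn6*, remove the phosphates again.

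Of these 10 genes, *Jak3*, *Ptpn6*, *Il2rg* and *Il13ra1* were lower in AclyM-KO and *Jak2* was higher, whereas *Il4ra*, *Jak1*, *Tyk2*, *Stat6* and *Irs2* did not pass the test (edgeR's quasi-likelihood test, Benjamini-Hochberg adjusted p under 0.05 over all genes tested). That is 4 genes lower and 1 higher, where 12.6% of all genes tested were lower and 12.4% were higher. The count of 4 fell to 1 without Ctrl replicate 1, AclyM-KO replicate 1 or AclyM-KO replicate 2 and to 2 without AclyM-KO replicate 3, while the count of 1 higher was kept in all 18 alternatives. The differences were small. Only *Il13ra1*, the least abundant of the 10, also exceeded a log2 fold change of 0.58 in size, a limit that 5.55% of all genes tested passed, 2.57% downwards and 2.98% upwards. The median log2 fold change was -0.12 over the 10 genes and 0.00 over all genes tested, and 8 of the 10 values were below 0.

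The sequences upstream of 3 genes are shown because *Jak2* was the gene that was higher, while *Jak3* and *Il2rg* encode the partners of the type I receptor and were both lower. Each run holds 150 bases, read on the strand of the gene, and capitals mark CpG dinucleotides. It begins 250 bases before the start of the gene in its first listed RefSeq window (GRCm38.p6). That start can differ from the gene positions printed below, which are those of GENCODE. These runs lie at chr19:29251553-29251702 (plus strand), chr8:71676133-71676282 (plus strand) and chrX:101268356-101268505 (minus strand), in that order.
Jak2: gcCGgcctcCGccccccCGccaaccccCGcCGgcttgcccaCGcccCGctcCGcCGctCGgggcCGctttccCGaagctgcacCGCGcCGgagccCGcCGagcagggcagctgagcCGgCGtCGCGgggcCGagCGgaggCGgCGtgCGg
Jak3: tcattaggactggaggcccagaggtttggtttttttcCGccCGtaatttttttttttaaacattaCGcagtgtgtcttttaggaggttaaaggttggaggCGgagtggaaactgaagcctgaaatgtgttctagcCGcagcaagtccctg
Il2rg: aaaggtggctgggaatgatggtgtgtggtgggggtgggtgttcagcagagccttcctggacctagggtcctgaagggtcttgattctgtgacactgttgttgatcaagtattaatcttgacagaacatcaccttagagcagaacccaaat
The *Jak2* stretch holds 26 CpG dinucleotides and 83.3% G or C, and 99.3% of all 27025 stretches of this kind had fewer CpG. The stretch of *Jak3* holds 5 CpG and 45.3% G or C, and that of *Il2rg* holds none. Over all such stretches the median was 3 CpG with quartiles of 1 and 7. *Irs2* had 22, *Tyk2* 11, *Il4ra* 9, *Il13ra1* 7, *Jak1* 5, and *Stat6* and *Ptpn6* 3 each. RefSeq windows were found for all 10 genes. In the 250 bases before the start, TTC and GAA with any 4 bases between them, the spacing known for STAT6, were present on either strand in 0 of the 10 genes and in 5.86% of all promoters. The spacing of other STAT factors, TTCNNNGAA, was found in 0 of the 10 genes and in 7.18% of promoters, and GAGGAAGT, a form of the PU.1 motif, in 0 of the 10 and in 2.44%. These matches describe letters only.

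Between 12151975 and 15587283 reads were counted per library on the rows used. The targeted gene was lower in the libraries labelled KO. *Acly* had 332, 321 and 350 CPM (counts scaled to a common, TMM-adjusted library size) in the Ctrl libraries and 146, 134 and 136 CPM in AclyM-KO, or 41.4% of Ctrl (log2 fold change -1.27 ± 0.053 SE, edgeR adjusted p = 5.2e-10). Exons outside the floxed one still contribute reads to it. All 8 macrophage markers examined were above the filter, and their summed level was 7715 to 8028 CPM in Ctrl and 7413 to 7785 CPM in AclyM-KO, with *Mertk*, *Itgam* and *Csf1r* lower and *Adgre1* higher. Markers of other cells were low. Lymphocyte markers summed to 17.8 to 21.4 CPM in Ctrl and 12.1 to 14.7 CPM in AclyM-KO, neutrophil markers to 12.1 to 14.9 and 19.5 to 21.5 CPM, dendritic cell markers to 2.5 to 4.33 and 3.91 to 5.08 CPM, mast cell, basophil and eosinophil markers to 0.683 to 0.900 and 0.546 to 0.836 CPM, and fibroblast markers to 0.304 to 0.900 and 0.819 to 1.44 CPM. In bulk RNA, fewer cells of a type and less RNA per cell cannot be told apart.

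**Figure D1:**
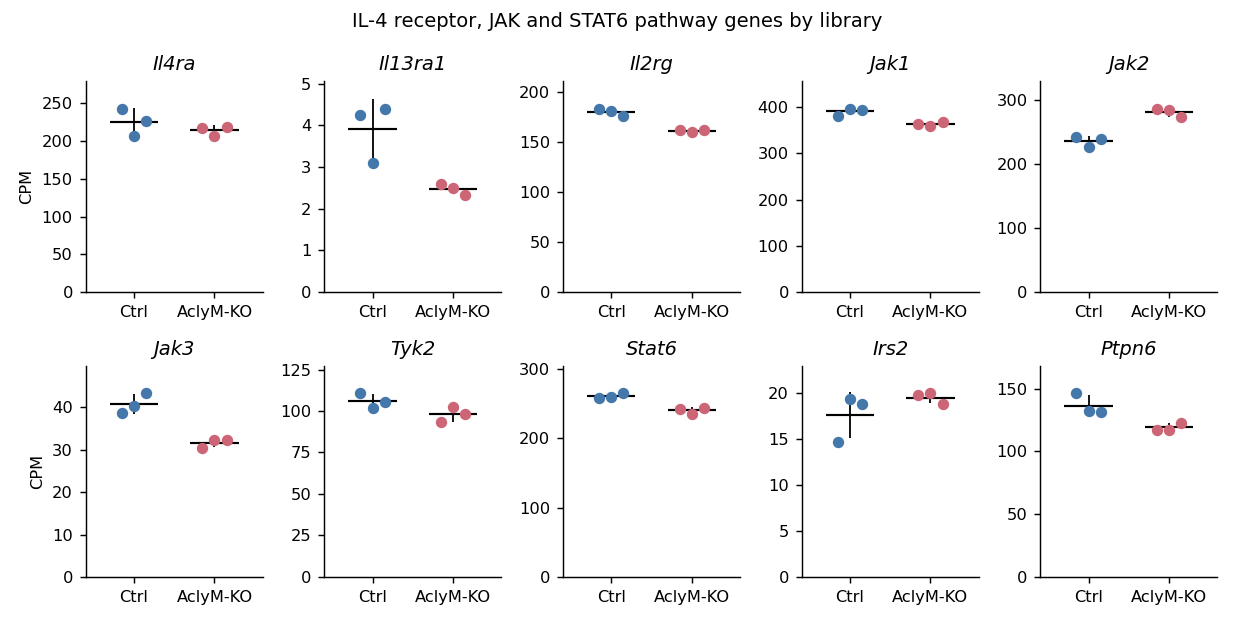
Level of each of the 10 genes in CPM (vertical axes, from 0) in the 3 Ctrl and 3 AclyM-KO libraries, with horizontal lines at the mean and vertical lines of 1 SD. The *Jak2* points of AclyM-KO lie above all Ctrl points, those of *Il13ra1*, *Il2rg*, *Jak1*, *Jak3*, *Stat6* and *Ptpn6* lie below them, and the groups overlap for *Il4ra*, *Tyk2* and *Irs2*.

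Among the receptor chains, the one that binds IL-4 itself showed no difference that passed the test. *Il4ra* (chr7:125552120-125579474, plus strand) had 243, 206 and 226 CPM in Ctrl and 217, 206 and 219 CPM in AclyM-KO. The groups overlapped, with the highest and the lowest value both in Ctrl. Its log2 fold change was -0.071 ± 0.059 SE (edgeR adjusted p = 0.416), and the 95% interval ran from 87.3% to 104% of Ctrl.

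*Il2rg* (chrX:101264378-101268255, minus strand) encodes the common γ chain, which is shared by the receptors for IL-2, IL-4, IL-7, IL-9, IL-15 and IL-21. It had 183, 180 and 175 CPM in Ctrl and 162, 159 and 162 CPM in AclyM-KO. All 3 AclyM-KO libraries were below all 3 Ctrl libraries. Its level in AclyM-KO was 89.6% of Ctrl (95% interval 83.6% to 96.0%, log2 fold change -0.16 ± 0.047 SE, edgeR adjusted p = 0.0213). Leaving out Ctrl replicate 1 (edgeR adjusted p = 0.0570) or AclyM-KO replicate 1 (0.0644), 2 (0.0945) or 3 (0.0660) ended this call, at log2 fold changes of -0.15 to -0.16. Of the exonic bases of *Il2rg*, 43.59% also lie under exons of *Gm20489* on the same strand, which has no row in the count table.

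*Il13ra1* (chrX:36112110-36171259, plus strand), the partner chain of the type II receptor, was counted only 34 to 63 times per library. It had 4.26, 3.11 and 4.40 CPM in Ctrl and 2.59, 2.51 and 2.33 CPM in AclyM-KO, with no overlap. The difference was the largest of the 10 and also the least precise, 62.9% of Ctrl with a 95% interval from 46.2% to 85.7% (log2 fold change -0.67 ± 0.21 SE, edgeR adjusted p = 0.0295). Leaving out any library other than Ctrl replicate 2 ended the call (edgeR adjusted p = 0.0894 without Ctrl replicate 1, 0.101 without Ctrl replicate 3, and 0.0648, 0.0783 and 0.0918 without AclyM-KO replicates 1, 2 and 3), and DESeq2 gave an adjusted p of 0.0686. The direction held in all 18 alternatives.

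The ligands were at or near the detection limit in these cells. In the Ctrl libraries *Il4* was counted 0, 0 and 3 times, against 2, 6 and 3 times in AclyM-KO, and *Il13* and the decoy receptor gene *Il13ra2* had 0 counts in every library, where 0 counts allow up to 3 counts, or 0.192 to 0.247 CPM. The IL-4 added to the cultures is protein and leaves no reads.

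The kinases did not move together. *Jak2* (chr19:29251828-29313080, plus strand), which is known for signalling from the type II receptor and from the receptors for GM-CSF and interferon-γ, had 242, 226 and 238 CPM in Ctrl and 286, 284 and 272 CPM in AclyM-KO. Every AclyM-KO library exceeded every Ctrl library. This was 119% of Ctrl (95% interval 111% to 128%, log2 fold change 0.26 ± 0.049 SE, edgeR adjusted p = 0.0013). The call held in all 18 alternatives, with log2 fold changes from 0.22 to 0.28.

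*Jak3* (chr8:71676296-71690575, plus strand), whose product binds the common γ chain and no other receptor chain named here, differed the other way. It had 38.6, 40.4 and 43.3 CPM in Ctrl and 30.5, 32.3 and 32.3 CPM in AclyM-KO. The groups were apart by more than the spread within either. AclyM-KO had 77.8% of the Ctrl level (95% interval 70.2% to 86.2%, log2 fold change -0.36 ± 0.069 SE, edgeR adjusted p = 0.0013), and the call held in all 18 alternatives (log2 fold change -0.40 to -0.32).

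The *Jak3* row needed a check of its reads. Its last exon, exon 25 (chr8:71690172-71690575, 404 bases), is also the end of *Insl3* on the same strand, so reads there cannot be assigned to either gene. The other *Jak3* row ends in an exon of its own (exon 24, chr8:71688163-71688556, 394 bases). On that row 495, 415 and 480 reads were counted for Ctrl against 388, 439 and 410 for AclyM-KO, and it was lower too, by a log2 fold change of -0.33 (edgeR adjusted p = 0.0033, an alternative chosen after seeing the data). The row for *Insl3* itself held 57, 54 and 76 reads for Ctrl against 41, 47 and 47 for AclyM-KO.

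JAK1 serves both receptor types. *Jak1* (chr4:101152367-101265282, minus strand) had 382, 397 and 394 CPM in Ctrl and 363, 359 and 368 CPM in AclyM-KO. These groups did not overlap, yet the difference missed the limit (log2 fold change -0.11 ± 0.044 SE, 95% interval 87.1% to 99.1% of Ctrl, edgeR adjusted p = 0.0901). *Tyk2* (chr9:21104068-21131243, minus strand), the partner of IL-13Rα1, had 111, 102 and 105 CPM in Ctrl and 93.4, 103 and 98.4 CPM in AclyM-KO. Here the groups overlapped (log2 fold change -0.11 ± 0.054 SE, 95% interval 85.6% to 100.3% of Ctrl, edgeR adjusted p = 0.152).

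**Figure D2:**
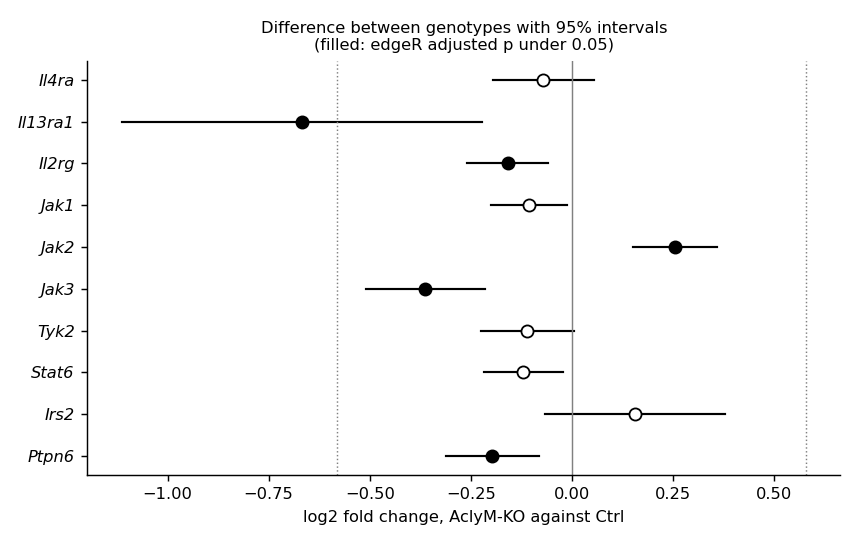
Log2 fold change of AclyM-KO against Ctrl (horizontal axis) for each of the 10 genes, with 95% intervals from the edgeR fit, filled points for adjusted p under 0.05 and dotted lines at 0.58 in either direction. *Jak2* lies at 0.26 and *Jak3* at -0.36, on opposite sides of 0, and *Il13ra1* has the widest interval, from -1.11 to -0.22.

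*Stat6* (chr10:127642986-127660957, plus strand), the factor that carries the signal to the nucleus, had 258, 260 and 265 CPM in Ctrl and 243, 234 and 243 CPM in AclyM-KO. All AclyM-KO libraries lay below all Ctrl libraries. The difference did not pass the limit in the main test (92.0% of Ctrl, 95% interval 86.0% to 98.5%, log2 fold change -0.12 ± 0.046 SE, edgeR adjusted p = 0.0689). It did with limma-voom (adjusted p = 0.0412), with scaling by library size alone (edgeR adjusted p = 0.0355), with counts thinned to the smallest library (edgeR adjusted p = 0.0489) and without Ctrl replicate 2 (edgeR adjusted p = 0.0451). Counts say nothing of the phosphorylation of STAT6, which was not measured in these libraries.

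*Irs2* (chr8:10984681-11008458, minus strand), the adaptor to PI3K, had 14.7, 19.3 and 18.7 CPM in Ctrl and 19.7, 19.9 and 18.8 CPM in AclyM-KO. Only Ctrl replicate 1 stood lower than the rest, and the groups overlapped (log2 fold change 0.16 ± 0.10 SE, 95% interval 95.5% to 130% of Ctrl, edgeR adjusted p = 0.305). Without Ctrl replicate 1 the log2 fold change was 0.032.

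*Ptpn6* (chr6:124720707-124738714, minus strand) had 146, 132 and 131 CPM in Ctrl and 117, 117 and 123 CPM in AclyM-KO. All AclyM-KO values were below those of Ctrl, at 87.3% of Ctrl (95% interval 80.5% to 94.5%, log2 fold change -0.20 ± 0.054 SE, edgeR adjusted p = 0.0153). The highest value was that of Ctrl replicate 1. Without it the log2 fold change was -0.15 (edgeR adjusted p = 0.0673), and the call was also lost without AclyM-KO replicate 1 (0.0636) or 2 (0.0797). Exons of *Gm20531* on the other strand cover 8.76% of its exonic bases, and strand was not used in the counting, so reads there are shared.

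Of the 10 genes, 6 were thus lower in all AclyM-KO libraries than in all Ctrl libraries and 1 was higher, where 40.2% of all genes tested did not overlap (19.8% lower and 20.5% higher). The exact two-sided permutation test over libraries gave p = 0.10 for each of these 7 genes, the smallest value that 3 against 3 libraries allow. *Il2rg*, *Jak3* and *Ptpn6* are also abundant in lymphocytes, whose summed markers were lower in AclyM-KO as given above. Among the 12 lymphocyte markers, only *Cd4* (15.8 ± 1.49 CPM in Ctrl and 10.6 ± 1.37 in AclyM-KO, SD, n = 3) and *Cd79b* (2.56 ± 0.22 and 1.34 ± 0.18 CPM) were above the filter, both lower, and *Cd3e*, *Cd3d*, *Cd3g* and *Ms4a1* had at most 4 counts in a library. Their part in the result was not tested.

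Levels of different genes were compared per length, as CPM per kilobase of transcript. In Ctrl, *Il2rg* was the most abundant at 108 ± 2.32 CPM per kilobase (SD, n = 3), followed by *Jak1* at 79.7 ± 1.64, *Stat6* at 69.1 ± 0.94, *Ptpn6* at 61.3 ± 3.82, *Jak2* at 47.6 ± 1.75 and *Il4ra* at 42.8 ± 3.51. *Tyk2* stood at 21.9 ± 0.93, *Jak3* at 10.1 ± 0.60, *Irs2* at 2.78 ± 0.40 and *Il13ra1* at 1.06 ± 0.19 CPM per kilobase. The ranges over the Ctrl libraries of neighbours in this order did not overlap, except those of *Jak2* and *Il4ra*, although *Jak2* was above *Il4ra* within each Ctrl library.

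The 2 receptor partners of IL-4Rα thus lay at opposite ends of the order. Against 11766 tested genes with a known length, *Il2rg* exceeded 95.4% and *Il13ra1* exceeded 11.8% in Ctrl. In AclyM-KO the order was the same but for *Jak2*, which at 56.8 ± 1.51 CPM per kilobase came before *Ptpn6* at 53.5 ± 1.43, and the ranges of these 2 genes overlapped.

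**Figure D3:**
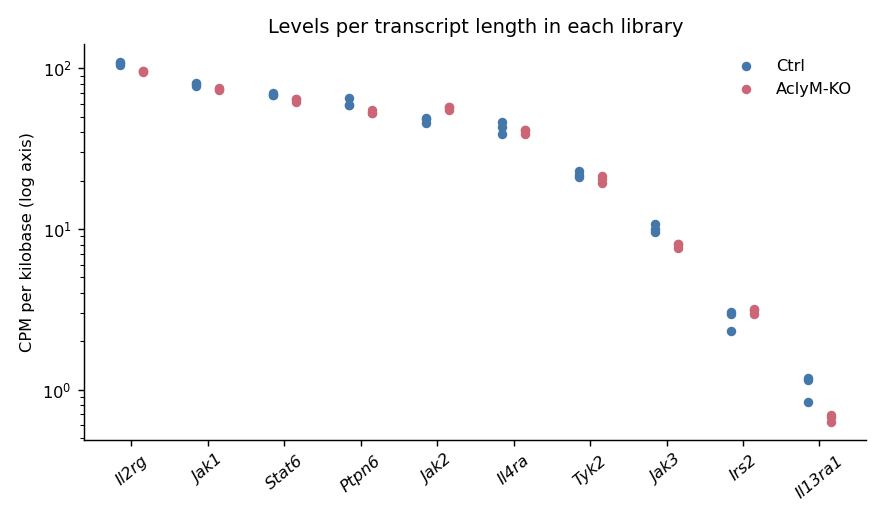
Level of each gene per transcript length in CPM per kilobase (vertical log axis) in every Ctrl and AclyM-KO library, ordered by the Ctrl mean. *Il2rg* stands at the top near 108 and *Il13ra1* at the bottom near 1.06 in Ctrl.

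The make-up of the JAK family was examined after the differences between its members had been seen. Summed per length, the 4 kinases had 159, 158 and 161 CPM per kilobase in Ctrl and 159, 160 and 158 in AclyM-KO, which is 159 ± 1.78 against 159 ± 0.74 (exact permutation p = 0.80). The groups overlapped in the sum, while each kinase's share of it was separated between them. *Jak2* made up 30.7%, 28.9% and 29.9% of the sum in Ctrl and 36.4%, 35.9% and 34.7% in AclyM-KO. The share of *Jak1* was 48.9%, 51.3% and 49.9% in Ctrl and 46.6%, 45.7% and 47.3% in AclyM-KO, and, as mean ± SD, that of *Jak3* was 6.37 ± 0.33% and 4.96 ± 0.16%, and that of *Tyk2* 13.8 ± 0.55% and 12.8 ± 0.56%. Each share had an exact permutation p of 0.10. For *Tyk2* the separation was narrow, 13.37% in Ctrl replicate 2 against 13.29% in AclyM-KO replicate 2, and its CPM overlapped between groups. Shares of 1 sum depend on each other, so that a higher share of *Jak2* by itself lowers the others.

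**Figure D4:**
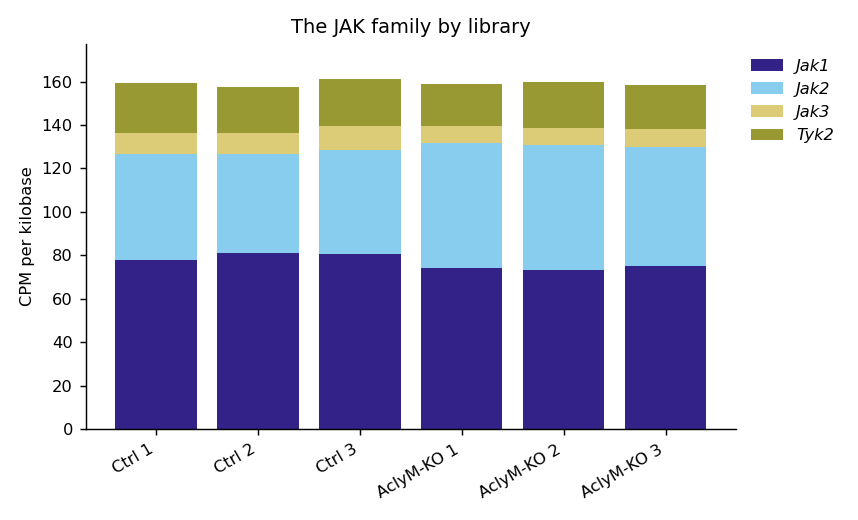
CPM per kilobase (vertical axis, from 0) of *Jak1*, *Jak2*, *Jak3* and *Tyk2*, stacked for each library. The total is between 158 and 161 in all 6 libraries, and the *Jak2* segment is larger in the AclyM-KO libraries, 34.7% to 36.4% of the total against 28.9% to 30.7% in Ctrl.

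Ratios between genes of the same library do not depend on how libraries are scaled, and 9 were compared with exact two-sided permutation tests. The ratio of *Jak2* to *Jak1*, per length, was 0.597 ± 0.033 in Ctrl and 0.767 ± 0.029 in AclyM-KO, and that of *Jak3* to *Jak1* was 0.127 ± 0.006 and 0.106 ± 0.004. *Il13ra1* stood at 0.0246 ± 0.0031 of *Il4ra* in Ctrl and at 0.0164 ± 0.0012 in AclyM-KO, and at 0.0098 ± 0.0018 and 0.0069 ± 0.0004 of *Il2rg*. These 4 ratios did not overlap between groups (exact permutation p = 0.10 each, 0.225 adjusted over the 9). Each holds *Jak2*, *Jak3* or *Il13ra1*, which were already called from the same libraries, so these ratios are no separate evidence. The share of other gene pairs without overlap was not computed. The other 5 overlapped. *Il2rg* to *Il4ra* was 2.53 ± 0.21 and 2.37 ± 0.056 (exact permutation p = 0.20), *Jak1* to *Il4ra* 1.87 ± 0.19 and 1.82 ± 0.038 (exact p = 0.70), *Tyk2* to *Jak1* 0.275 ± 0.017 and 0.275 ± 0.015 (exact p = 1.0), *Ptpn6* to *Stat6* 0.888 ± 0.064 and 0.842 ± 0.019 (exact p = 0.40) and *Irs2* to *Il4ra* 0.0657 ± 0.014 and 0.0757 ± 0.0045 (exact p = 0.30).

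The rest of the pathway was described by lists of genes, of which counts and medians are given beside those of all genes tested (12.6% lower, 12.4% higher, median 0.00). Of the 6 other STAT genes, 1 was lower and none was higher, with a median log2 fold change of 0.04. It was *Stat5b* (68.7 ± 0.64 CPM in Ctrl, 60.4 ± 2.17 in AclyM-KO, log2 fold change -0.19 ± 0.052 SE, edgeR adjusted p = 0.0165), which acts after many cytokines, among them GM-CSF and IL-2. Without AclyM-KO replicate 2 this call was lost (edgeR adjusted p = 0.0999). *Stat5a*, singled out after its values were seen, had 35.5 ± 3.32 CPM in Ctrl and 40.4 ± 1.45 in AclyM-KO. Its log2 fold change of 0.18 ± 0.074 SE, in the other direction, did not pass the test (edgeR adjusted p = 0.0855).

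Of the 20 genes that restrain receptors, JAKs or STATs, 4 were lower and 3 were higher, with a median of -0.01. The 2 beyond the limit of 0.58 belong to the family of cytokine-inducible SOCS inhibitors. *Cish* had 88.4, 84.4 and 88.1 CPM in Ctrl and 49.5, 46.4 and 54.1 in AclyM-KO (log2 fold change -0.80 ± 0.060 SE, edgeR adjusted p = 2.2e-07). *Socs2* had 11.1, 14.3 and 12.6 CPM in Ctrl and 4.23, 6.18 and 4.59 in AclyM-KO (log2 fold change -1.33 ± 0.16 SE, edgeR adjusted p = 2.2e-05). Both are known as targets of STAT5, whose part in these differences was not tested. The adaptor gene *Dok2* (log2 fold change -0.44) and the ubiquitin ligase gene *Cbl* (-0.38) were lower, and *Sh2b3*, whose product LNK restrains JAK2 (0.30), *Ptpn11*, which encodes SHP-2 (0.22), and *Socs7* (0.25) were higher (edgeR adjusted p at most 0.0209). *Ptpn11* missed the limit without AclyM-KO replicate 3 (edgeR adjusted p = 0.0568), as did *Socs7* without Ctrl replicate 3 (0.0904) or AclyM-KO replicate 1 (0.103). *Socs1*, singled out after its values were seen because its product inhibits JAK kinases directly, had 43.2 ± 6.04 CPM in Ctrl and 43.1 ± 4.51 in AclyM-KO (log2 fold change -0.004 ± 0.093 SE, edgeR adjusted p = 0.980).

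On the arm from IRS adaptors to PI3K and AKT, 5 of 21 genes tested were lower and 1 was higher, with a median of -0.034. Among the lower genes were the catalytic subunit genes *Pik3cd* (148 ± 6.86 CPM in Ctrl, 122 ± 2.56 in AclyM-KO, log2 fold change -0.28, edgeR adjusted p = 9.1e-04) and *Pik3cb* (-0.30), the regulatory subunit gene *Pik3r2* (-0.26) and the adaptor gene *Gab2* (-0.22). *Akt1* was higher (282 ± 10.1 and 326 ± 1.71 CPM, log2 fold change 0.21, edgeR adjusted p = 0.0039). *Pik3r2* was lost without AclyM-KO replicate 2 (edgeR adjusted p = 0.0556) and *Pik3cb* without AclyM-KO replicate 2 (0.0807) or 3 (0.0844). The counts of genes lower on this arm ranged from 2 to 8 over the alternatives. *Irs1* did not pass the filter on low counts.

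Among 7 co-regulators of STAT6, 2 were lower. *Kdm6b*, which encodes the histone demethylase JMJD3, had 29.0 ± 3.23 CPM in Ctrl and 15.1 ± 2.00 in AclyM-KO, without overlap (log2 fold change -0.94 ± 0.11 SE, edgeR adjusted p = 1.3e-05). The coactivator gene *Ncoa3* was lower by less (255 ± 6.58 CPM in Ctrl, 229 ± 6.58 in AclyM-KO, log2 fold change -0.16, edgeR adjusted p = 0.0249), a call lost without Ctrl replicate 1 (edgeR adjusted p = 0.0597) or any AclyM-KO library (0.0576 to 0.134).

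Of 19 genes tested that are known to depend on STAT6 in macrophages, 9 were lower and 2 were higher. Their median log2 fold change was -0.26. Of the 19, 5 were lower beyond the limit of 0.58, as were 2.57% of all genes tested. Some of the 19, *Arg1*, *Cdh1* and *Mgl2* among them, were picked out by the study from these libraries, so that their direction is no independent evidence. The arginase gene *Arg1* had 1034, 1231 and 1055 CPM in Ctrl and 298, 283 and 298 in AclyM-KO (log2 fold change -1.92 ± 0.060 SE, edgeR adjusted p = 2.0e-11). The groups were far apart. The other 4 beyond the limit were the transglutaminase gene *Tgm2* (-0.71), the lectin gene *Mgl2* (-0.59), the chemokine gene *Ccl22* (-1.07) and the E-cadherin gene *Cdh1* (-0.80). With 1 library left out, *Mgl2* ranged from -0.64 to -0.55 and *Cdh1* from -0.98 to -0.57, so neither stayed beyond the limit throughout. The transcription factor gene *Egr2* was lower as well (-0.48), and that of the transcription factor KLF4 was higher (*Klf4*, 87.2 to 107 CPM in Ctrl and 128 to 139.9 in AclyM-KO, log2 fold change 0.48 ± 0.067 SE, edgeR adjusted p = 9.7e-05). *Retnla* (-0.12, edgeR adjusted p = 0.0765), *Chil3* (-0.036, 0.784) and *Mrc1* (-0.027, 0.655), singled out after their values were seen as widely used markers of IL-4 activation, did not pass the test.

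Other receptors that use the common γ chain or JAKs were also measured. Of 23 genes tested, 10 were lower and 1 was higher, with a median of -0.17, and without AclyM-KO replicate 2 only 6 were lower. The smallest adjusted p among the lower genes was that of *Ifngr1*, a chain of the receptor for interferon-γ, with 192, 175 and 201 CPM in Ctrl and 132, 131 and 133 in AclyM-KO (log2 fold change -0.52 ± 0.055 SE, edgeR adjusted p = 5.7e-06). Also lower were *Csf3r* (-0.39), *Il10ra* (-0.46), *Ifnar2* (-0.27) and *Csf2rb2* (-0.30), the last of which shares most of its sequence with *Csf2rb* and is uncertain for that reason. *Lifr*, a receptor chain for leukemia inhibitory factor, was higher, with 10.6 ± 1.56 CPM in Ctrl and 23.2 ± 1.79 in AclyM-KO (log2 fold change 1.12 ± 0.11 SE, edgeR adjusted p = 3.1e-06). The ligand-specific chains of the other γ chain receptors were singled out after their values were seen. *Il21r* was lower (29.3, 34.0 and 32.7 CPM in Ctrl, 24.4 ± 3.36 CPM (SD, n = 3) in AclyM-KO, none of which reached a Ctrl value, log2 fold change -0.39 ± 0.096 SE, edgeR adjusted p = 0.0081), *Il7r* (-0.018, edgeR adjusted p = 0.838) and *Il15ra* (-0.24, 0.449) did not pass the test, and *Il2ra* and *Il9r* did not pass the filter on low counts.

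**Figure D5:**
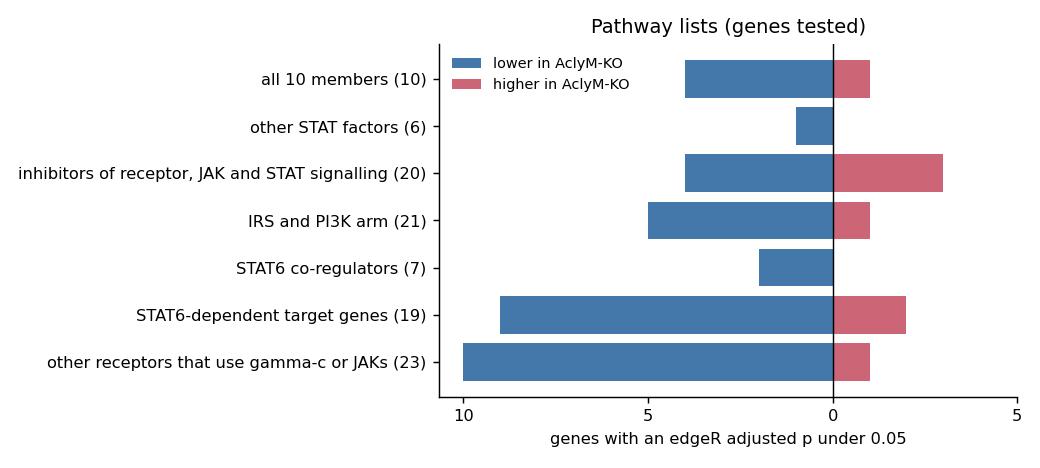
Number of genes with an edgeR adjusted p under 0.05 (horizontal axis, lower in AclyM-KO to the left and higher to the right of 0) for the 10 genes and each list, with the number of genes tested in parentheses. Among the STAT6-dependent genes 9 of 19 were lower and 2 higher, and among the inhibitors 4 of 20 were lower and 3 higher.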

How the data were processed

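The authors made strand-specific mRNA libraries (KAPA HyperPrep), aligned reads to mm10 with STAR 2.5.2b (CASAVA 1.8.2 is also in the submitters' processing notes) and deposited unnormalized counts per RefSeq transcript. The counter is not given in the sources used here. Counts on *Xist* and *Tsix*, 7864 each in Ctrl replicate 1, show that strand was not used. The 35745 rows were paired with symbols through NCBI RefSeq (GRCm38.p6, 35440 rows) and GENCODE M21 (188 rows). The remaining 117 rows held 0.370% to 1.38% of counts and entered neither library sizes nor tests. Isoform rows repeat reads, so the row with the highest total was kept for each of 24445 genes. These rows give the depth, with a median of 13074469 counts in Ctrl and 14787741 in AclyM-KO, and counting error alone is covered by the limit of 3 counts. Positions, lengths and overlaps of genes are those of GENCODE M21 on GRCm38, and the upstream sequences are those of RefSeq.

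Genes were filtered (filterByExpr), TMM-scaled and tested with edgeR 4.0.16 in R 4.3.3 (glmQLFit and glmQLFTest, genotype as the only term, Benjamini-Hochberg over 12023 genes). SEs are the log2 fold change divided by the square root of F. The common biological coefficient of variation was 0.0588. Replicate pairs differed by more than counting noise (chi-square per gene 2.32 to 7.55), so none was counted as 1 sample. This check cannot tell biological replicates from technical ones, since it compares libraries with counting noise only. Exact permutation tests used scipy 1.17.1 in Python 3.11.15. Alternatives were DESeq2 1.42.0 (the study's tool), limma-voom 3.58.1, other scalings, filters, rows and limits, thinning to 12151975 counts, a replicate block and leaving out each library. The procedure was tested on simulated data.

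The 10 genes, the lists and the tests were chosen with earlier results of these data known. Named from each list are up to 6 genes with an adjusted p under 0.05, smallest p first, and any beyond a log2 fold change of 0.58 with an adjusted p under 0.05. Exceptions are marked, and results for some single genes of the lists are not reported here.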

Additional observations from a re-analysis of the deposited data

How the results depend on the processing

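*Jak2* and *Jak3* kept their calls and *Il4ra*, *Tyk2* and *Irs2* stayed outside the limit in all 18 alternatives, and no log2 fold change of the 10 genes changed sign. The number of the 10 genes called lower was 4 in the main test, 6 with scaling by library size alone and 1 to 5 when 1 library was left out, 1 without Ctrl replicate 1, AclyM-KO replicate 1 or AclyM-KO replicate 2, and 2 without AclyM-KO replicate 3. The number called higher was 1 throughout. *Il13ra1* lost its call with DESeq2 (log2 fold change -0.67, adjusted p = 0.0686) and ranged from -0.81 to -0.59 with 1 library left out. *Il2rg* ranged from -0.18 to -0.15 and *Ptpn6* from -0.23 to -0.15 in the same way. *Jak1* passed with library size only (-0.13, edgeR adjusted p = 0.0455). *Stat6* passed with limma-voom (-0.12, adjusted p = 0.0412), library size only (-0.14, edgeR adjusted p = 0.0355), thinned counts (-0.13, edgeR adjusted p = 0.0489) and without Ctrl replicate 2 (-0.13, edgeR adjusted p = 0.0451). Its range was -0.13 to -0.10 over the fits that each omit a library. Genes beyond the fold change limit, 1 in the main test, numbered 0 with DESeq2, 0 with edgeR's glmTreat, 2 at a limit of 0.26, 0 at a limit of 1 and 0 to 1 with 1 library left out. The cause was not tested. Scaling by library size alone gave a median log2 fold change of -0.018 over all genes, against 0.00 in the main test, and split the calls into 1710 lower and 1283 higher, against 1511 and 1485.

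The log2 ratio of *Tyk2* to *Jak1* reversed its sign without Ctrl replicate 1 (0.045), AclyM-KO replicate 1 (0.031) or AclyM-KO replicate 3 (0.0027), over a range of -0.046 to 0.045. That of *Jak1* to *Il4ra* did so without Ctrl replicate 2 (0.034), over a range of -0.11 to 0.034. The JAK sum, AclyM-KO minus Ctrl, was -0.30 CPM per kilobase and reversed without Ctrl replicate 3 (0.60), over a range of -1.17 to 0.60. It also reversed with the row of the lowest total (0.21) and with the sum of all rows (5.57). The sum of all rows counts reads of *Jak2*, *Jak3* and *Tyk2* on several rows. With that sum, 4 of 10 places in the order of levels stayed, by the same construction. Pathway list genes called lower ranged from 23 to 36 and higher from 6 to 8.

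Replicate numbers did not pair the libraries, since same-numbered libraries had correlations of deviations of -0.065, 0.050 and -0.031. With a replicate block, *Il2rg* was at -0.16 (edgeR adjusted p = 0.0561), the only one of the 10 genes whose call ended, *Ncoa3* lost its call too (edgeR adjusted p = 0.0612), and 1329 genes were lower and 1315 higher. Depth limits *Il13ra1* most, with 34 to 63 counts per library. Transcripts were measured, not proteins or their phosphorylation.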
